A study of Rattus norvegicus with 196 samples.

Results

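The insular cortex of rats given fluoxetine was compared with that of control rats, using the 8 of 196 RNA-seq libraries that carry the region label InsularCortex. They were chosen by that label and by treatment. There were 4 libraries of the fluoxetine-treated (FT) group and 4 of the control (Sham) group, each group with replicate numbers 1, 3, 4 and 5. FT rats were given fluoxetine in their drinking water at 18 mg/kg for 6 weeks from 2 months of age, and Sham rats were given water alone over the same time. All were male Long-Evans rats housed in pairs, and the methods name no mutant line and no stress procedure for them. Each library came from frozen tissue punches pooled over several animals of its group, so the spread between libraries is that between pools. The punches held every cell type of the tissue, and fewer cells of a type and less RNA per cell cannot be told apart.

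The insular cortex of the rat lies on the side of the brain above the rhinal fissure and receives signals from the viscera, taste and pain pathways. It is connected with the amygdala and the prefrontal cortex, and it receives serotonin fibres from the raphe nuclei. Fluoxetine blocks the serotonin transporter, which takes serotonin back into the fibres after release. Serotonin itself is made in the raphe, so in the cortex the genes nearest to it are its receptors, its breakdown enzymes and the enzymes that handle tetrahydrobiopterin, the cofactor of serotonin synthesis.

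The authors deposited raw counts for 29188 Ensembl transcripts. Between 4745675 and 45612709 counts fell on transcripts in the insular libraries, with the lowest and the highest both in Sham (replicates 3 and 1). In the FT group the range was 8755799 to 17372085. The 50 most abundant transcripts took 55.1% of counts in Sham replicate 3 and 65.9% in FT replicate 3, against 28.7% to 34.3% in 5 of the other libraries and 53.0% in the library labelled FT replicate 1. Levels are given as CPM, counts divided by library size on a common scale, with TMM factors that correct for a few transcripts that take a large share of a library.

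The library labelled FT replicate 1 went against its label. Levels in this paragraph were scaled over all 196 libraries. Of the 5 markers of excitatory neurons with an identifier, all were lower there than in any of the other 7 insular libraries. Camk2a (listed as CAMK2A), a kinase of excitatory synapses, stood at 2.75 CPM, against 41.6 to 190.0 in the others. Nrgn, a calmodulin-binding protein of cortical dendrites, stood at 36.6 CPM, against 91.4 to 4800.0. Both were thus below the cortical range. Th, the rate-limiting enzyme of dopamine and noradrenaline synthesis, stood at 413 CPM, against 0.611 to 2.05. Slc17a6, the vesicular glutamate transporter of subcortical neurons, stood at 391 CPM, against 4.89 to 21.2. Of the 8 markers of neurons outside the cortex, 6 were above the other 7 libraries here, and the 2 peptide genes Avp and Oxt, at 0.229 CPM each, lay within their range. Slc6a3, the dopamine transporter, stood at 4.28 CPM there and at no more than 0.0461 elsewhere. All 6 oligodendrocyte markers with an identifier were above the other 7 libraries as well, and their summed level was 1250.0 CPM, against 116 to 278. The summed level of those 8 markers was 856 CPM, against 17.7 to 32.2. With CPM that carried no TMM scaling, this library was again the lowest in the sum of excitatory markers and the highest in both other sums.

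**Figure D1:**
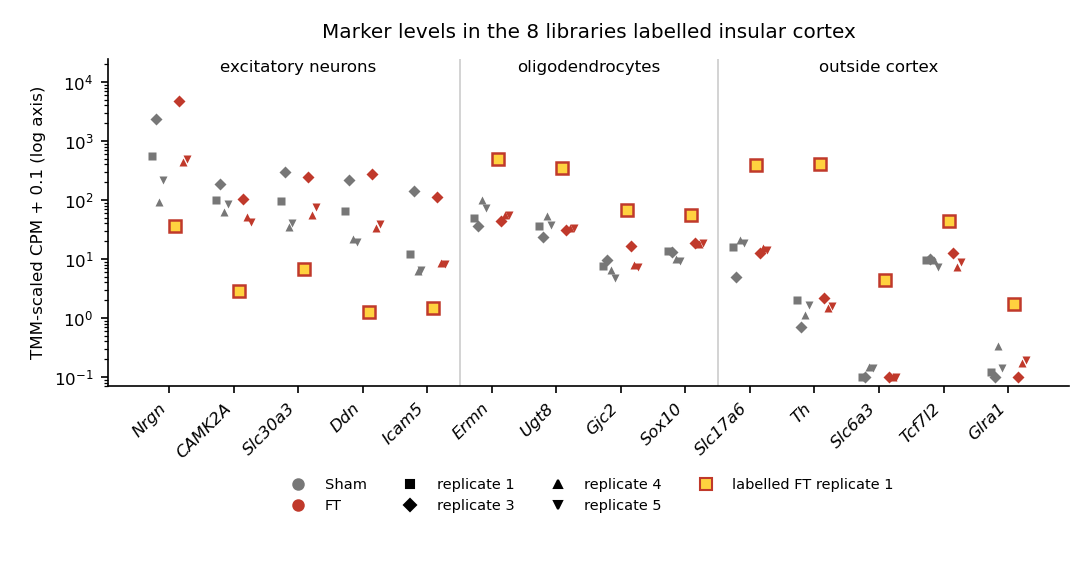
TMM-scaled CPM (plus 0.1, log axis) of 14 marker genes in each library labelled insular cortex, with Sham in grey, FT in red and the library labelled FT replicate 1 as a yellow square. That square lies below the other 7 libraries for the 5 markers of excitatory neurons and above them for the 4 oligodendrocyte genes and the 5 genes of neurons outside cortex.

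Profiles over the 5837 transcripts with the most counts gave the same picture. After the mean of each replicate number was removed, the library labelled FT replicate 1 had r = -0.295 with the mean insular profile of the other replicates, which ranked 20th of 25 regions. Its highest values were r = 0.547 with the ventral tegmental area (VTA), r = 0.487 with the lateral hypothalamus (LH) and r = 0.381 with the locus coeruleus (LC). The other 7 libraries had r between 0.619 and 0.78 with the insular profile, which ranked 3rd or higher for each, and any region above it was another cortical one. The single library nearest to the one labelled FT replicate 1 was Sham VTA replicate 1, with r = 0.992 on log2 CPM, and the next had r = 0.941. For the other 7 the nearest library was a cortical one with the same replicate number, with r from 0.931 to 0.991. Each r was computed over transcripts, and these are no independent replicates. Sham VTA replicate 1 held 344 CPM of Th, 358 CPM of Slc17a6 and 1.15 CPM of Camk2a. Values are therefore given below with all 4 pairs and without replicate 1. Where 2 values follow a gene, the first is with 4 pairs and the second without replicate 1. Leaving out replicate 1 removes its FT and its Sham library.

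FT and Sham were compared with edgeR's quasi-likelihood test, in which the replicate number entered as a block. A transcript was called changed at an absolute log2 fold-change (log2FC, positive where FT was higher) of at least 0.32, with its p adjusted by the Benjamini-Hochberg method at 0.1 or below. With all 4 pairs, 0 of 13752 transcripts tested were called (0.0% higher and 0.0% lower), and the smallest adjusted p was 0.654. At an unadjusted p under 0.05, 449 transcripts were higher in FT (3.26%) and 593 were lower (4.31%). Without replicate 1, edgeR called 4 transcripts higher and 4 lower (0.0295% of 13582 tested in each direction). The unadjusted counts were then 642 higher (4.73%) and 511 lower (3.76%). Between both fits 619 transcripts with an unadjusted p under 0.05 were shared, all with the same sign, which is 59.4% of those with 4 pairs and 53.7% of those without replicate 1. DESeq2 with the same block called 11 transcripts higher (0.0961%) and 44 lower (0.384%) with all 4 pairs. Without replicate 1 it called 41 higher (0.524%) and 25 lower (0.32%). Of these calls 27 were shared, 49.1% of the first set and 40.9% of the second.

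Gene names were available for 1817 of the tested transcripts, through a table of transcripts that the study itself had called in several regions. The named transcripts are thus a selected set. Among them 11.9% were higher and 12.5% were lower at an unadjusted p under 0.05, a larger share than over all transcripts. In either direction it was 24.4% of the named transcripts with 4 pairs and 32.3% without replicate 1, and a list of named genes with a share near or below these does not stand apart from the named set.

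Ndrg3 (ENSRNOT00000055232), a member of the N-myc downstream-regulated family that is abundant in brain, had the lowest log2FC of the 12 named genes with the smallest p among those lower in every pair. In Sham it was measured at 54.5, 27.4, 57.3 and 48.9 CPM in replicates 1, 3, 4 and 5. In FT it was measured at 0.681, 4.42, 11.9 and 11.2 CPM. All 4 FT libraries were below all 4 Sham libraries. Its log2FC was -3.08 ± 0.63 (SE) with all 4 pairs, with an adjusted p of 0.654. Without replicate 1 it fell with a log2FC of -2.31 ± 0.28 and an adjusted p of 0.00477 in edgeR. DESeq2 called it lower in both fits, with adjusted p = 0.00039 and 1.03e-09. The adjusted p in edgeR was between 0.65 and 0.854 when replicate 3, 4 or 5 was left out in place of replicate 1. FT over Sham gave a log2 ratio of -6.12 in pair 1 and between -2.60 and -2.12 in the other pairs, so the library labelled FT replicate 1 was the lowest of all.

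Mat2a, the enzyme that makes S-adenosylmethionine in most tissues, was also lower in each pair. It stood at 33.3, 57.3, 72.0 and 58.4 CPM in Sham and at 2.42, 35.1, 19.7 and 17.0 CPM in FT, with the FT value of replicate 3 above the Sham value of replicate 1. Its log2FC was -1.98 ± 0.45 with 4 pairs and -1.47 ± 0.30 without replicate 1. In edgeR its adjusted p was 0.654 and 0.249, and DESeq2 called it lower both times (adjusted p = 0.0121 and 0.00857).

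Napb, the brain form of the SNAP proteins that help to take SNARE complexes apart after vesicle fusion, stood at 26.7, 58.2, 51.2 and 33.7 CPM in Sham and at 6.20, 37.1, 11.2 and 14.1 CPM in FT. Its log2FC was -1.55 ± 0.33, and -1.36 ± 0.32 without replicate 1. Within each pair the FT library was the lower one, although the groups overlapped through FT replicate 3. Sypl1, a relative of the vesicle protein synaptophysin, stood at 16.5, 13.7, 27.9 and 22.6 CPM in Sham and at 5.82, 6.41, 9.00 and 10.0 CPM in FT. The groups did not overlap, and its log2FC was -1.36 ± 0.28 with 4 pairs and -1.31 ± 0.31 without replicate 1. Actr2, a subunit of the Arp2/3 complex that nucleates branched actin, ranged from 330 to 557 CPM in Sham and from 126 to 208 CPM in FT, again without overlap (log2FC -1.34 ± 0.28 and -1.23 ± 0.30). Cdk5, a kinase of neuronal migration and synapse function, had a log2FC of -1.25 ± 0.26 and -1.16 ± 0.28. Prkacb, a catalytic subunit of protein kinase A, had a log2FC of -1.47 ± 0.33 and -1.16 ± 0.30, with Sham at 23.4 to 31.2 CPM and FT at 4.69 to 17.5 CPM. Cds2, which makes CDP-diacylglycerol for the phosphatidylinositol pool, had a log2FC of -1.78 ± 0.40 and -1.48 ± 0.39. Its level differed between replicate numbers, with 108 and 78.5 CPM in Sham and FT replicate 3 and at most 4.74 CPM in any other library.

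The other genes of this set were Tmem18, Enpp5, Slc35a5 and Zyg11b. Tmem18, a protein of the nuclear envelope, had a log2FC of -1.54 ± 0.34 and -1.41 ± 0.35, and its groups did not overlap. Enpp5, a member of the nucleotide pyrophosphatase family, had -1.14 ± 0.26 and -1.07 ± 0.27. Slc35a5, of the nucleotide-sugar transporter family, had -1.43 ± 0.32 and -1.20 ± 0.32, and Zyg11b, a substrate receptor of a cullin ubiquitin ligase, -1.33 ± 0.30 and -1.35 ± 0.32. Without replicate 1 the log2FC of these 12 genes lay between -2.31 and -1.07. They were chosen as lower in every pair, so keeping that direction without 1 pair is no separate evidence. DESeq2, run on the counts that also served to choose them, called all 12 lower with 4 pairs and 11 without replicate 1. In 5 of the 12 the groups did not overlap.

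The 12 named genes with the smallest p among those higher in every pair had log2FC between 0.99 and 2.10, and between 0.82 and 1.66 without replicate 1. Fdx1l, the mitochondrial ferredoxin of iron-sulphur cluster assembly, stood at 18.4, 84.0, 9.28 and 14.4 CPM in Sham and at 54.9, 112, 42.7 and 44.5 CPM in FT. Each FT library was above its partner, with the smallest gap in replicate 3, and the log2FC was 1.46 ± 0.33 and 1.43 ± 0.32. Iscu, the scaffold protein on which those clusters are built, stood at 40.0, 78.7, 37.4 and 48.1 CPM in Sham and at 148, 135, 79.1 and 71.8 CPM in FT. Its log2FC was 1.08 ± 0.29, and 0.82 ± 0.26 without replicate 1. Mrps35, a protein of the small mitochondrial ribosome subunit, had 1.01 ± 0.27 and 0.88 ± 0.27.

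Smarca5, the motor of ISWI chromatin remodelling complexes, stood at 54.8, 39.2, 160 and 144 CPM in Sham and at 209, 62.8, 367 and 325 CPM in FT. It was 2.38-fold higher in FT with 4 pairs (SE 0.29 on the log2 scale), and its log2FC was 1.03 ± 0.27 without replicate 1. Sap30l, a subunit of the Sin3A histone deacetylase complex, stood at 8.96, 9.65, 6.41 and 11.4 CPM in Sham and at 27.6, 15.3, 30.0 and 22.6 CPM in FT. The groups did not overlap for Sap30l, nor for Srp19, a protein of the signal recognition particle (log2FC 1.09 ± 0.28 and 0.98 ± 0.28). Of the 24 lower and higher genes together, 7 had groups without overlap, where 2.3% of all transcripts tested did. The genes were chosen by small p and by direction in these same libraries, and the library labelled FT replicate 1 entered both the choice and the overlap counts. A share above that of all transcripts thus follows from the choice. Paip1, a factor that binds the poly(A)-binding protein in translation, stood at 59.9, 27.4, 158 and 146 CPM in Sham and at 156, 45.5, 344 and 359 CPM in FT. Its log2FC was 1.14 ± 0.25 and 1.07 ± 0.27. Both groups covered a wide range for Paip1, and the difference lay within the pairs.

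Nek1, a kinase of cilia and DNA repair, had a log2FC of 1.22 ± 0.27, which moved by less than its SE without replicate 1. Tmpo, which encodes the lamina-associated polypeptide 2 proteins of the inner nuclear membrane, had 1.11 ± 0.29 and 0.93 ± 0.28, and Rab24, a small GTPase of the autophagy pathway, 0.99 ± 0.27 and 1.07 ± 0.28. RGD1310641 was close to the limit of detection, with 0.0 to 1.03 CPM in Sham and 0.221 to 5.22 CPM in FT. Pcsk1n encodes proSAAS, an inhibitor of the prohormone convertase PC1, and has 2 identifiers whose names differ only in case. Reads of near-identical copies could be split between them, so both values are uncertain. The entry PCSK1N (ENSRNOT00000075774) was 2.38-fold higher in FT (SE 0.34 on the log2 scale), with a log2FC of 1.66 ± 0.31 without replicate 1. The entry Pcsk1n (ENSRNOT00000009794) had a log2FC of 0.89 ± 0.37 and 1.35 ± 0.28. Of the 12 higher genes, DESeq2 called 6 with 4 pairs and 6 without replicate 1. The adjusted p in edgeR was 0.654 for all 24 genes with 4 pairs.

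**Figure D2:**
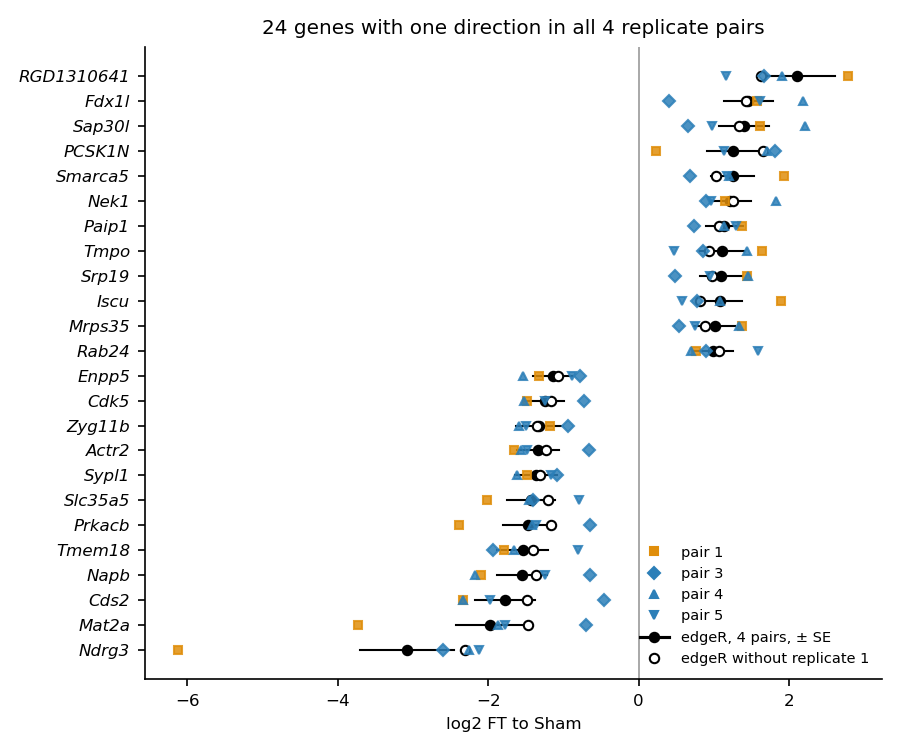
The log2 ratio of FT to Sham in each replicate pair for the 24 named genes chosen by smallest p among those with 1 direction in all pairs, with pair 1 in orange and pairs 3, 4 and 5 in blue. Filled circles are edgeR log2FC ± SE over 4 pairs and open circles the log2FC without replicate 1. Pair 1 lies farthest from 0 for Ndrg3 (-6.12), Mat2a (-3.73) and Prkacb (-2.39) and nearest to 0 for PCSK1N (0.23).

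Direction in all 4 pairs and a small p were part of the choice of these genes and are not evidence about them. Pair 1, whose FT library went against its label, was part of that choice. Their log2FC without replicate 1 and their DESeq2 calls come from the same libraries and are no separate evidence. Over all 13752 transcripts, 1268 (9.22%) were higher in all 4 pairs and 1326 (9.64%) were lower. In pairs 3, 4 and 5 alone these shares were 14.9% and 13.8%.

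The same rule gave 4 identifiers that have no name here. ENSRNOT00000075747 stood at 18.6, 82.5, 0.166 and 0.158 CPM in Sham and at 30.3, 395, 1.30 and 4.25 CPM in FT. Without replicate 1 it rose with a log2FC of 2.99 ± 0.41 (adjusted p = 0.00852, edgeR). ENSRNOT00000071687 stood at 35.8, 27.1, 4.78 and 5.19 CPM in Sham and at 15.9, 6.85, 0.288 and 0.398 CPM in FT. Without replicate 1 it fell with a log2FC of -3.02 ± 0.45 (adjusted p = 0.017, edgeR). Both moved one way in each pair while their level differed many-fold between replicate numbers. ENSRNOT00000007587 had a log2FC of 1.38 ± 0.35 and 1.17 ± 0.35. ENSRNOT00000071231 had one of -2.43 ± 0.53 and -2.75 ± 0.52, and edgeR called neither without replicate 1.

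The 8 transcripts that edgeR called without replicate 1 comprised 6 without a name and the genes Ndrg3 and Ttr. Ttr (ENSRNOT00000022113) encodes transthyretin, the carrier of thyroid hormone that the choroid plexus secretes. It stood at 8.51, 10.6, 4.66 and 8.71 CPM in Sham and at 40.4, 1.33, 1.22 and 1.99 CPM in FT. The 3 FT libraries of replicates 3, 4 and 5 were below all Sham libraries, and the library labelled FT replicate 1 was above them. Without replicate 1, Ttr fell with a log2FC of -2.26 and an adjusted p of 0.0439 in edgeR. With all 4 pairs its log2FC was -1.24, with an adjusted p of 0.722 (edgeR), and its log2FC was between -0.92 and -0.71 without replicate 3, 4 or 5 and 0.48 without the block. The other markers of choroid plexus were lower in FT in the pairs of replicates 3, 4 and 5 as well. Kcnj13 stood at 1.22, 5.62 and 3.70 CPM in Sham replicates 3, 4 and 5 and at 1.14, 2.78 and 2.20 CPM in FT, on the scale of all libraries. It thus differed little in replicate 3. Mfrp was close to the limit of detection, at or below 0.323 CPM in these Sham libraries and at or below 0.144 CPM in FT. The summed level of the 3 choroid plexus markers includes Ttr itself and is no separate evidence for it. This sum was 11.1 to 13.2 CPM in Sham and 2.51 to 4.49 CPM in FT of these replicates. The Sham libraries of LC had a mean of 27300.0 CPM of Ttr. The part of choroid plexus tissue in the difference was not tested.

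**Figure D3:**
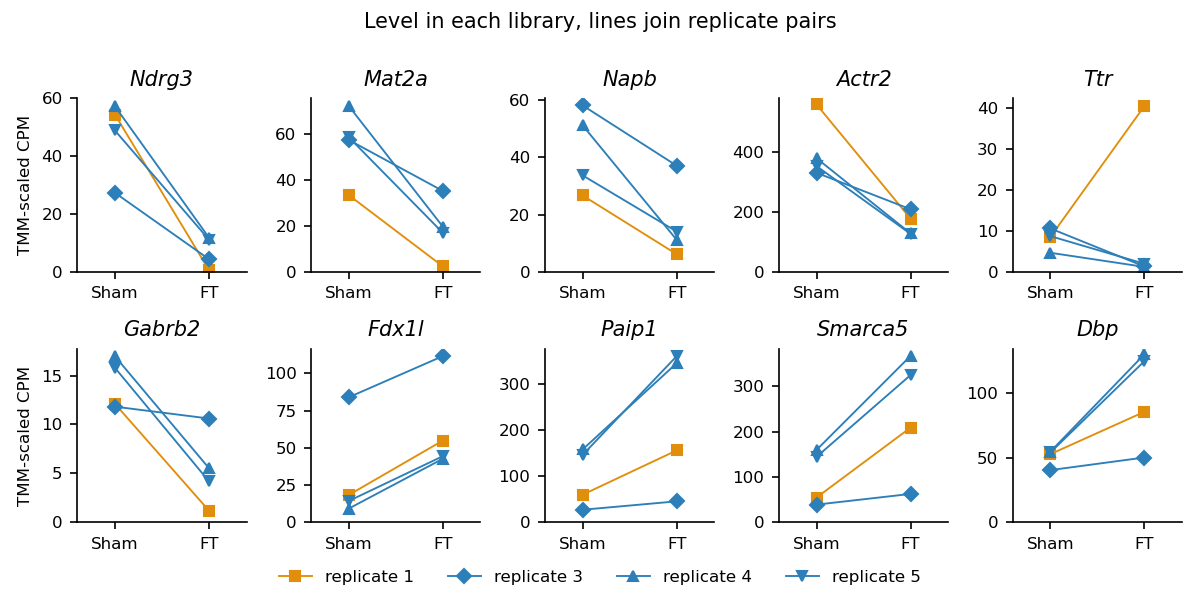
TMM-scaled CPM of 10 genes in each insular library, with a line from the Sham to the FT library of each replicate number (orange for replicate 1, blue for the others). Ndrg3, Mat2a, Napb, Actr2 and Gabrb2 are lower and Fdx1l, Paip1, Smarca5 and Dbp higher in FT in each pair, and Ttr is lower in 3 pairs and higher in the pair of replicate 1.

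Genes of transmission were then described by lists, as counts at an unadjusted p under 0.05 and as medians. The median log2FC was 0.03 over all transcripts tested and 0.19 over the named ones, and 7.58% and 24.4% of them had an unadjusted p under 0.05 in either direction. Without replicate 1 this share was 8.49% of all transcripts tested. Of the genes of the serotonin system, 4 passed the filter on low counts, all linked to tetrahydrobiopterin, and the receptor gene Htr1a did not pass. The transporter and the other receptors were not analysed here. Gchfr, which feeds cofactor levels back to the first enzyme of its synthesis, stood at 3.79, 1.56, 1.50 and 2.18 CPM in Sham and at 37.3, 3.10, 3.96 and 4.16 CPM in FT. Its log2FC was 1.74 ± 0.48 with 4 pairs and 1.12 ± 0.39 without replicate 1, and by far its highest level was in the library that went against its label. Pts, the second enzyme of the synthesis, had 0.89 ± 0.36 and 1.04 ± 0.36. Spr and Qdpr, the last enzyme and the recycling enzyme, had 0.50 and 0.74, and 0.51 and 0.24 without replicate 1.

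Proteins of the synaptic vesicle cycle had a median log2FC of -0.64 over 26 members, with 0 higher and 10 lower at an unadjusted p under 0.05 (38.5%). Without replicate 1 the median was -0.47, with 1 higher and 10 lower (42.3%), and 8 or 9 were lower when another replicate was left out. Besides Sypl1 and Napb these were led by Pacsin1, which shapes membranes in endocytosis (log2FC -1.14 ± 0.27 and -1.02 ± 0.30), and Syt11, a synaptotagmin that does not bind calcium (-1.23 ± 0.31 and -0.93 ± 0.27). The median of the list was below 0 in each pair, at -1.34, -0.47, -0.42 and -0.30 for replicates 1, 3, 4 and 5. Ion channel subunits had a median of -0.49 over 23 members, with 1 higher and 8 lower (39.1%). Without replicate 1 it was -0.49 with 2 higher and 6 lower (34.8%), a share near the 32.3% of the named transcripts. Only 3 were lower without replicate 4 and 3 without replicate 5. Scn2b, an auxiliary subunit of sodium channels, had a log2FC of -1.45 ± 0.38 and -1.03 ± 0.30. Kcna2, a potassium channel of axons, had -1.11 ± 0.38 and -1.24 ± 0.38, Cacnb3, a calcium channel subunit, -0.98 ± 0.34 and -0.67 ± 0.30, and Kcnj10, the inward rectifier of astrocytes, -1.54 ± 0.39 and -1.44 ± 0.40.

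GABA genes had a median of -0.51 over 9 members with 0 higher and 2 lower (22.2%), and -0.42 over 8 members with 0 and 2 without replicate 1, which as shares are below those of the named transcripts in both fits. Gabrb2, the most common beta subunit of the GABA-A receptor, stood at 12.1, 11.8, 17.0 and 15.8 CPM in Sham and at 1.21, 10.6, 5.54 and 4.20 CPM in FT. The groups did not overlap, although replicate 3 differed little. Its log2FC was -1.74 ± 0.48, and -1.29 ± 0.38 without replicate 1. Slc6a11, the GABA transporter of astrocytes, had -1.12 ± 0.36 and -1.41 ± 0.33. Glutamate genes had a median of -0.47 over 15 members with 1 higher and 6 lower (46.7%), and -0.24 with 4 higher and 4 lower without replicate 1 (53.3%). More lower than higher members were thus seen only with replicate 1. Grin3a (GRIN3A), an inhibitory NMDA receptor subunit, had -1.31 ± 0.35 and -1.32 ± 0.37. Lrrtm4, a postsynaptic adhesion protein, had -1.59 ± 0.46 and -1.04 ± 0.31, and Dlg4, the main scaffold of the postsynaptic density, -0.85 ± 0.33 and -0.52 ± 0.28. Grin2c, another NMDA receptor subunit, was higher in all FT libraries than in any Sham library, with 6.41 to 8.09 CPM in Sham and 10.9 to 15.9 CPM in FT (0.73 ± 0.28, and 0.78 ± 0.31 without replicate 1). Of 7 receptors for acetylcholine, adenosine and monoamines, 2 were lower in both fits (28.6%). These were the muscarinic receptor Chrm1 (-1.99 ± 0.60 and -1.34 ± 0.38) and the nicotinic subunit Chrnb2 (-0.99 ± 0.30 and -1.08 ± 0.33).

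Markers of excitatory neurons had a median log2FC of -0.50 over 12 members, but the pair medians were -3.43, 0.16, 0.18 and 0.28, and without replicate 1 the median was 0.12. The low cortical markers in the library labelled FT replicate 1 thus stand beside the neuronal lists above, and their part in those lists was not tested. In pairs 3, 4 and 5 the median was -0.47, -0.42 and -0.30 for vesicle genes. It was -0.06, -0.67 and -0.68 for channel genes and -0.06, -0.78 and -0.24 for GABA genes, so both were close to 0 in pair 3. Camk2a itself stood at 91.2, 194, 55.8 and 81.0 CPM in Sham and at 2.72, 98.6, 48.9 and 38.4 CPM in FT. Its log2FC was -1.57 ± 0.69, and -0.74 ± 0.27 without replicate 1. Kcnj3, a G protein-gated potassium channel, had -0.75 ± 0.28 and -0.65 ± 0.30, and Enc1, an actin-binding protein of cortical neurons, -1.22 ± 0.51 and -0.62 ± 0.35. Nrgn went the other way without replicate 1, with 2443, 82.5 and 204 CPM in Sham replicates 3, 4 and 5 and 4657, 418 and 450.4 CPM in FT. DESeq2 then called it higher (log2FC 1.45, adjusted p = 0.00496), which edgeR did not (adjusted p = 0.33). The marker Ddn also lay above 0 without replicate 1, with -0.30 ± 0.93 and 0.65 ± 0.26.

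Oligodendrocyte genes had a median of 0.43 over 20 members with 3 higher and 0 lower, and pair medians of 2.13, -0.22, -0.14 and -0.10. Without replicate 1 the median was -0.19 with 2 higher and 3 lower. Sox10, the lineage transcription factor, was higher in each FT library than in any Sham library (17.3 to 54.1 against 8.59 to 13.4 CPM), with a log2FC of 1.14 ± 0.33 and 0.81 ± 0.30. Myrf, the regulator of myelin genes, had 0.78 ± 0.30 and 0.70 ± 0.31. Among 13 astrocyte genes 1 was higher and 2 were lower (23.1%), and 2 and 2 without replicate 1 (30.8%). Slc7a10, a transporter of serine, was 2.38-fold higher (SE 0.40 on the log2 scale), with a log2FC of 1.11 ± 0.38 without replicate 1, and the lower genes were Kcnj10 and Slc6a11. Among 9 microglial genes 1 was higher and 3 were lower, as were 1 and 3 of 8 without replicate 1. Cx3cr1, the fractalkine receptor, had a log2FC of -1.24 ± 0.40 and -0.80 ± 0.33, and Mpeg1, a pore-forming protein of macrophages, -1.27 ± 0.37 and -1.28 ± 0.38. Markers of 1 cell type thus lay in both directions. Of 7 vessel genes 2 were lower in both fits (28.6%), with Bgn, a matrix proteoglycan, at -1.39 ± 0.37 and -1.26 ± 0.38. Genes of thalamus, hypothalamus and brainstem had a pair median of 4.62 in replicate 1. Without it their median over 5 members was 0.08.

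Most genes of the mitochondrial lists had a log2FC above 0, as did a smaller share of the named transcripts (1094 of 1817). Subunits of the respiratory chain had a median log2FC of 0.47 over 40 members, of which 35 were above 0, with 7 higher and 1 lower at an unadjusted p under 0.05 (20.0%). Their pair medians were 0.85, 0.18, 0.10 and 0.63 for replicates 1, 3, 4 and 5, with the largest in the pair of the library that went against its label. Without replicate 1 the median was 0.31, with 11 higher and 1 lower (30.0%), while 1 was higher without replicate 5. Both shares were below those of the named transcripts (24.4% and 32.3%). Mt-nd6 (MT-ND6), the complex I subunit encoded on the light strand of mitochondrial DNA, stood at 185, 505, 145 and 308 CPM in Sham and at 919, 1343, 326 and 317 CPM in FT, with little difference in replicate 5. Its log2FC was 1.24 ± 0.39 and 0.88 ± 0.33. Atp5j2, a subunit of the ATP synthase, was at 290 to 428 CPM in Sham and at 520 to 1280 CPM in FT, without overlap (1.02 ± 0.34 and 0.71 ± 0.30). Ndufb4, of complex I, had 0.87 ± 0.28 and 0.72 ± 0.28, and the entry NDUFB4, which differs from it in case alone, had 0.84 and 0.80, so reads may be split between both. Uqcrc2, a core protein of complex III, had -0.76 ± 0.26 and -0.56 ± 0.26.

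Mitochondrial ribosome and import genes had a median of 0.44 over 34 members, of which 32 were above 0, with 4 higher and 1 lower (14.7%). Without replicate 1 it was 0.52 with 33 above 0, and with 14 higher and 0 lower (41.2%). The share was below that of all named transcripts in the first fit (24.4%) and above it in the second (32.3%). Their pair medians were 0.06, 0.00, 0.89 and 0.72, so the values above 0 came from replicates 4 and 5. Tomm6, of the outer membrane translocase, had 0.69 ± 0.28 and 0.88 ± 0.28, and Mrpl2, a protein of the large subunit, -0.70 ± 0.27 and -0.56 ± 0.29. Proteins of the cytosolic ribosome had a median of 0.17 with 0 of 27 at an unadjusted p under 0.05, and -0.13 with 2 higher and 0 lower without replicate 1 (7.41%). Among 10 genes of glycolysis and the citrate cycle 2 were higher and 1 was lower (30.0%), and 2 and 0 without replicate 1 (20.0%). Cs, the citrate synthase, had -0.83 ± 0.31 (unadjusted p = 0.0257 in edgeR) and -0.53 ± 0.27 (unadjusted p = 0.0715 in edgeR), and Me2, the mitochondrial malic enzyme, 0.63 ± 0.25 and 0.59 ± 0.27.

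**Figure D4:**
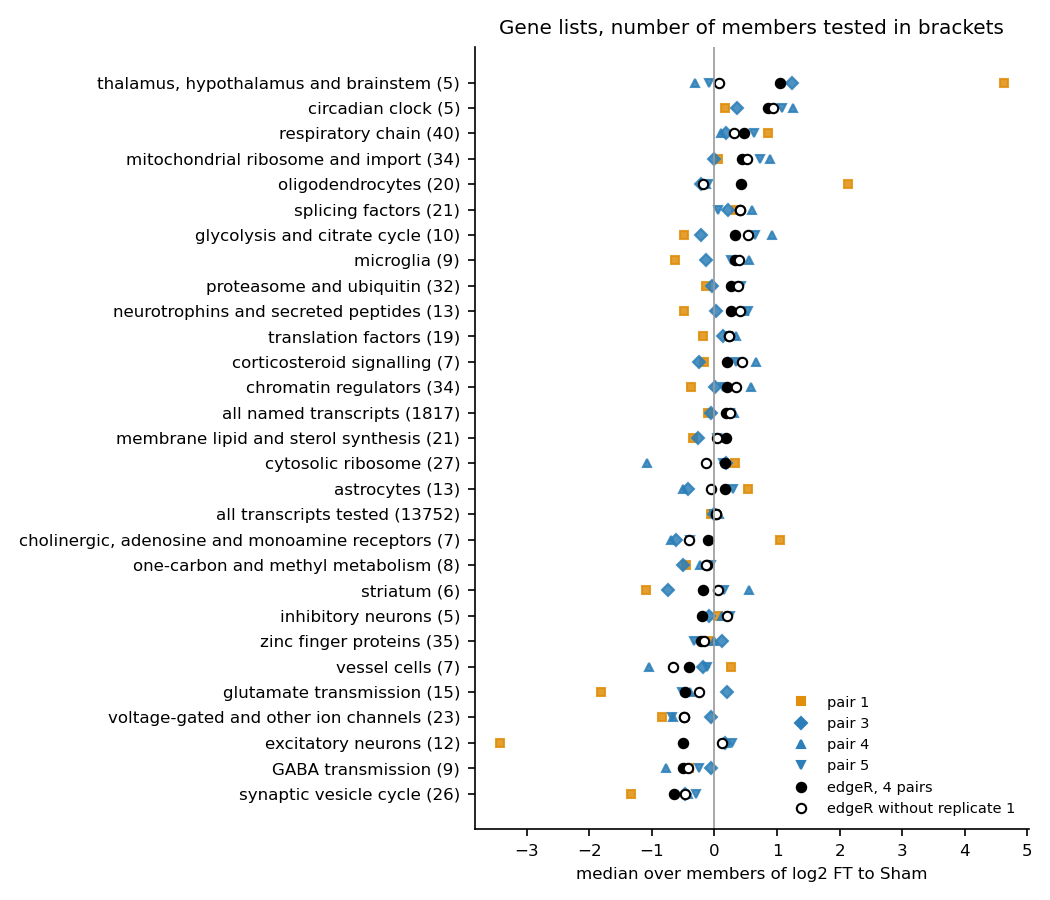
Median log2 FT to Sham over the members of each gene list with 5 or more members tested, by replicate pair (orange for pair 1, blue for the others) and in the edgeR fit with 4 pairs (filled circles) and without replicate 1 (open circles). Pair 1 lies far from the other pairs for excitatory neurons (-3.43), oligodendrocytes (2.13) and genes of thalamus, hypothalamus and brainstem (4.62).

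Regulators of translation, protein turnover and chromatin held members in both directions. Of 19 translation factors 2 were higher and 2 lower (21.1%), and 5 and 2 without replicate 1 (36.8%). Eif5b, which joins the ribosomal subunits, had a log2FC of 0.78 ± 0.28 and 0.58 ± 0.27, and Eif2s3, a subunit of the factor that brings the first tRNA, -0.67 ± 0.26 and -0.77 ± 0.27. Of 32 proteasome and ubiquitin genes 4 were higher and 2 lower (18.8%), and 9 and 2 without replicate 1 (34.4%). Ube3a, a ubiquitin ligase of neurons, stood at 71.3, 55.7, 263 and 297 CPM in Sham and at 268, 77.4, 496 and 413 CPM in FT (0.94 ± 0.32, and 0.63 ± 0.27 without replicate 1), while Ube2o had -1.03 ± 0.31 and -1.01 ± 0.34. Of 34 chromatin regulators 4 were higher and 3 lower (20.6%), and 6 and 4 without replicate 1 (29.4%), both below the shares of the named transcripts. After Smarca5 these included Cbx5, the heterochromatin protein HP1 alpha (0.85 ± 0.29 and 0.60 ± 0.27), and Chd3, a remodeller of the NuRD complex (-1.05 ± 0.35 and -0.79 ± 0.32). Of 21 splicing factors 5 were higher and 3 lower (38.1%), and 6 and 1 without replicate 1 (33.3%), among them Snrnp70 of the U1 particle (0.74 ± 0.26 and 0.88 ± 0.26). Zinc finger genes had a median of -0.21 over 35 members, with 2 higher and 5 lower (20.0%). Without replicate 1 the median was -0.16 with 5 higher and 5 lower (28.6%), and without replicate 4 or 5 it was 0.0 or -0.04.

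Of 21 enzymes of membrane lipid and sterol synthesis 13 had a log2FC above 0, with a median of 0.18. This was near the level of the named transcripts, of which 1094 of 1817 were above 0 with a median of 0.19. At an unadjusted p under 0.05, 1 was higher and 5 were lower (28.6%), and without replicate 1 the counts were 5 and 3 (38.1%). Elovl5, an elongase of polyunsaturated fatty acids, was at 9.53 to 15.3 CPM in Sham and at 0.983 to 6.10 CPM in FT (-1.70 ± 0.52 and -1.08 ± 0.32). Of 8 genes of one-carbon metabolism 3 were lower in both fits (37.5%). Besides Mat2a these were Psat1, an enzyme of serine synthesis (34.9 to 50.1 CPM in Sham and 22.8 to 29.1 CPM in FT, -0.69 ± 0.24 and -0.66 ± 0.26), and Prmt1, the main arginine methyltransferase (-0.92 ± 0.27 and -0.99 ± 0.29).

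Genes that answer to light, hormones or activity were few. Of 5 clock genes 2 were higher with 4 pairs (40.0%), 3 without replicate 1 (60.0%) and 0 without replicate 5. Dbp, an output transcription factor of the clock, stood at 52.8, 40.5, 54.7 and 54.1 CPM in Sham and at 85.5, 50.2, 130.0 and 125 CPM in FT. Each FT library was above its Sham partner, and only FT replicate 3 lay within the Sham range. Its log2FC was 0.87 ± 0.27, and 0.94 ± 0.27 without replicate 1. Of 7 corticosteroid genes 0 were higher and 1 was lower (14.3%), and 2 and 0 without replicate 1 (28.6%). The lower one was Nr3c2, the mineralocorticoid receptor (-1.10 ± 0.45 and -0.77 ± 0.38). Of 3 immediate early genes 0 had an unadjusted p under 0.05 with 4 pairs and 1 without replicate 1, and Ppp1r15a had a log2FC of 0.51 ± 0.36 and 0.55 ± 0.36. Of 13 entries for secreted peptides 3 were higher and 1 was lower, and 4 and 0 without replicate 1 (30.8% in both fits). PCSK1N and Pcsk1n, the 2 entries of 1 gene, were both among the higher ones in each fit, so that gene was counted as 2. Among the 3 higher with 4 pairs was also the galanin gene Gal, which stood at 30.4 CPM in the library labelled FT replicate 1 and at most 1.14 CPM in the others. Its log2FC was 2.08 ± 0.84, and 0.73 ± 0.56 without replicate 1 (unadjusted p = 0.211 in edgeR).

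Genes that the study singles out as changed in many regions were chosen on data that include these libraries, so their direction is not independent evidence. Of these, 9 have an identifier here. With 4 pairs, 1 was higher and 4 were lower at an unadjusted p under 0.05, and 3 and 4 without replicate 1. Napb, Cds2, Mat2a and Gabrb2 were lower and Grin2c was higher, with the values given above. Otub1, a deubiquitinase, stood at 913, 599, 293 and 399 CPM in Sham and at 400.3, 385, 1195 and 1576 CPM in FT. It was thus lower in FT in replicates 1 and 3 and higher in replicates 4 and 5. Its log2FC was 0.55 ± 0.61, and 1.18 ± 0.47 without replicate 1. Commd4, a protein of the COMM domain family, differed little in replicate 3, was lower in FT in replicate 1 and higher in replicates 4 and 5, with 157, 93.3, 36.9 and 86.6 CPM in Sham and 75.7, 92.6, 160.0 and 245 CPM in FT (0.65 ± 0.51, and 1.23 ± 0.35 without replicate 1). Trim28, a corepressor of zinc finger proteins, had 0.30 ± 0.38 and 0.56 ± 0.35, and Sirt2, a deacetylase of myelin, 0.29 ± 0.35 and 0.19 ± 0.34.

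The 4 pairs did not move together over the whole transcriptome. Across 13752 transcripts, Pearson's r of the FT-to-Sham log2 ratios was 0.314 between pairs 4 and 5 and 0.279 between pairs 1 and 3. For the other combinations it lay between -0.0471 and 0.113. In the most abundant 20% of transcripts it was 0.434 between pairs 4 and 5 and 0.414 between pairs 1 and 3. The SD of the log2 ratio was 1.32 in pair 1, 0.838 in pair 3, 0.755 in pair 4 and 0.661 in pair 5. The ratios were thus weakly related between pairs 4 and 5 and between pairs 1 and 3, and had little relation otherwise. Pair 1 holds the library that went against its label, so its ratios carry that difference too. Its r with pair 3 therefore cannot be read as a shared response to FT. These values are across transcripts and describe the pairs without a test.

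The response was last compared with that of the prelimbic (PLC) and infralimbic (ILC) cortex, which also have 4 pairs each. The interaction asks whether the log2FC of FT differed between the regions, and edgeR called 0 of 14609 transcripts for PLC (0.0%) and 0 of 14213 for ILC (0.0%). At an unadjusted p under 0.05 there were 70 higher and 70 lower for PLC (0.479% each), and 74 higher (0.521%) and 121 lower (0.851%) for ILC. DESeq2 called 0 in either comparison. Among named genes the smallest p for PLC belonged to MT-ND6, with a difference in log2FC of 1.66 ± 0.57 and 1.01 without replicate 1 (adjusted p = 1.0 in edgeR both times). Its log2 ratios in pairs 1, 3, 4 and 5 were 2.31, 1.41, 1.17 and 0.04 in insular cortex and -1.25, 0.66, -1.29 and 0.19 in PLC. For ILC it belonged to Rpl7l1, a relative of the ribosomal protein L7, with -1.61 ± 0.51 and -1.27 without replicate 1. Its log2 ratios were -1.68, -2.08, -0.38 and -0.58 in insular cortex, and its groups did not overlap there. The ratios were 0.65, 2.87, 0.36 and 0.08 in ILC. Sham ILC replicate 3, which enters the ratio of 2.87, held 543403 counts over 8800 transcripts with 85.8% in its 50 most abundant, and Sham ILC replicate 1 had 82.9% in its own. Without replicate 3 the difference for Rpl7l1 was -1.25 ± 0.49 (adjusted p = 1.0, edgeR). A difference in the FT response between insular cortex and these regions was not detected with these libraries. The shares at an unadjusted p under 0.05 lay below those that chance gives where no transcript differs, so the test was conservative here. The library labelled FT replicate 1 also entered both comparisons. The lack of calls therefore does not show that the responses were alike.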

How the data were processed

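RNA-seq libraries of the insular cortex (4 FT and 4 Sham) were analysed, with all 196 libraries used for levels. The authors deposited raw counts per Ensembl transcript on rn5. The submitters' processing notes name STAR, HTSeq and FastQC, with no versions given. No normalization had been applied by the authors. The 5 closing lines of each file (reads outside features, ambiguous, not unique) were left out. Reads outside features made up 22.1% to 48.5% and ambiguous reads 4.71% to 8.66% of each insular file. Total counts of 4745675 to 45612709 limit the precision, and values of single libraries carry counting error only.

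Groups came from the sample titles. Counts were fitted with edgeR 4.0.16 in R 4.3.3 (TMM, filterByExpr at its minimum count of 10 and total of 15, replicate number as a block, quasi-likelihood test, Benjamini-Hochberg adjustment). The SE was taken as the size of the log2FC over the root of its F statistic. The study's methods process FT and Sham samples of a replicate in parallel and enter replicate numbers as batches. Deviations from the group means of same-numbered FT and Sham libraries had r = 0.287, 0.825, 0.572 and 0.573 across transcripts for replicates 1, 3, 4 and 5. Libraries of different numbers had r = 0.797 (FT 4 and Sham 5), 0.426 (FT 5 and Sham 4) and at most 0.025 otherwise, so replicates 4 and 5 are not told apart by this check, and the pairing rests on the study's methods. DESeq2 1.42.0 with the same block was an alternative, beside no block, median-ratio size factors, all transcripts kept whatever their count, an adjusted p threshold of 0.05 and leaving out each replicate. Pair ratios used log2 CPM with a prior count of 2. The fits were tested on simulated data.

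Gene names came from the study's table of transcripts it had called in 2 or more regions (1844 names). Named genes were, among those with an absolute log2FC of at least 0.32 and 1 direction in all 4 pairs, the 12 higher and 12 lower with the smallest p, and 2 of each without a name. To these were added up to 4 members of each of 32 lists with an unadjusted p under 0.05 (or the member with the smallest p), the genes the study singles out, cell markers and the 5 smallest interaction p per region. Some genes that this rule gives are not reported here. The members and the lists were chosen with earlier results of these data known. Region profiles and DESeq2 without single replicates were added after values had been seen, as were Spr and Qdpr among the genes described. CGC, which has 4 pairs here as well, was not used, since the study removed replicates there. Other steps ran in Python 3.11.15 with pandas 2.3.3, numpy 2.4.6 and matplotlib 3.10.9.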

Additional observations from a re-analysis of the deposited data

Results flagged for a closer look

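Within each group of 4 libraries, a level is given here where 1 library lay far from the others (a gap to the nearest library above Dixon's critical value). Chance gives this in about 1 of 20 groups where values follow a normal distribution. Levels entered here without logs and most of the genes were chosen on these same libraries, so that rate need not hold for them. Over the 90 genes and identifiers tested there were 49 such levels, 23 in FT replicate 3, 14 in Sham replicate 3, 11 in the library labelled FT replicate 1 and 1 in Sham replicate 5. Levels are CPM on the scale of the insular libraries.

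The library labelled FT replicate 1 was high for genes of neurons outside cortex, with Th at 408, Slc17a6 at 386, Gal at 30.4 and Slc6a3 at 4.23 CPM. It was also high for Sox10 (54.1), Ttr (40.4), Mfrp (2.19), Gchfr (37.3) and Atp5j2 (1280.0), and low for Elovl5 (0.983) and Cbx5 (171).

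Both libraries of replicate 3 stood apart in the same direction for 11 genes and identifiers. These were Pcsk1n (197 CPM in Sham and 657 in FT), PCSK1N (123 and 429), Kcnj10 (9.64 and 3.54), Chrm1 (86.5 and 56.8), Chrnb2 (146 and 53.0), Cds2 (108 and 78.5), Pacsin1 (350.0 and 235), Kcna2 (21.5 and 16.8), Chd3 (91.5 and 94.8), Dlg4 (138 and 135) and ENSRNOT00000071231 (5420.0 and 2680.0). Sham replicate 3 alone stood apart for Slc6a11 (17.1), Fdx1l (84.0) and Dbp (40.4). FT replicate 3 alone was high for Grin2c (15.9), Enpp5 (67.9), Nrgn (4660.0), Zyg11b (17.5), Ube2o (39.8), Cacnb3 (130.0), Bgn (15.9), Syt11 (126), Cs (153), Eif5b (315) and ENSRNOT00000075747 (395), and low for Srp19 (159). In replicate 3 the 50 most abundant transcripts also took 55.1% (Sham) and 65.9% (FT) of counts, and the part of this in the levels was not tested. Sham replicate 5 was high for Trim28 (145).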

How the results depend on the processing

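The number of transcripts called was the value that depended most on the processing. With 0 called higher and 0 lower in edgeR, DESeq2 called 11 and 44, edgeR without a filter on low counts 19 and 33, and edgeR without 1 replicate 0 to 4 in each direction. DESeq2 without 1 replicate, chosen after seeing the data, called 41, 6, 8 and 2 higher and 25, 32, 28 and 8 lower without replicates 1, 3, 4 and 5. At an unadjusted p under 0.05, leaving out 1 replicate gave 261 to 642 higher and 377 to 590 lower in edgeR (325 to 509 and 418 to 661 in DESeq2), and no filter on low counts gave 896 lower. Without the replicate block, that is without the pairing, these counts were 116 higher and 117 lower and 0 were called. Against ILC, 13 transcripts were called higher without the filter and 0 to 5 without 1 replicate, all 5 without replicate 4. The causes were not tested. Median-ratio size factors left the direction of all 139 log2FC of named genes as it was, with none called. An adjusted p of 0.05 could change no call, since none was made at 0.1.

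Without the block the log2FC changed sign for Sst (0.16), Ddn (0.08), Ttr (0.48), Apoe (-0.36) and Sirt2 (-0.07). Leaving out 1 replicate, the log2FC ranged over 0 for Gja1 (-0.41 to 0.22), Sst (-0.65 to 0.80), Slc30a3 (-0.96 to 0.43), Ugt8 (-0.16 to 1.10), Nrgn (-0.26 to 1.47), Ddn (-0.94 to 0.65), Hbb-b1 (-0.14 to 0.29), Vip (-0.61 to 0.20), Icam5 (-0.90 to 0.15), Otub1 (-0.01 to 1.18), Trim28 (-0.18 to 0.56), Opalin (-0.22 to 0.48), Cnpy4 (-0.30 to 0.29), Ermn (-0.33 to 0.98), Ppp1r1b (-0.34 to 0.17), Apoe (-0.08 to 0.37), DRD2 (-0.41 to 0.55), Aspa (-0.34 to 0.54) and Sirt2 (-0.06 to 0.58). Of these changes of sign 13 came without replicate 1, 7 without replicate 4 and 4 without replicate 5.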
